A study of Homo sapiens with 6 samples.

Results

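The colony-stimulating factors and interleukins described here are 10 genes, *CSF1*, *CSF2*, *CSF3*, *IL1A*, *IL1B*, *IL6*, *IL11*, *IL18*, *IL32*, and *LIF*, of the 29483 genes in the deposited expression table. They were taken as secreted cytokines other than chemokines and were selected on earlier results of the same comparison of case and control libraries, so their case and control values, and whether each passed the threshold used for all genes, are given as a description and support nothing. RNA was sequenced from HK-2 cells, an established, immortalized line from the epithelium of human renal proximal tubules, in 3 control and 3 case replicates. All 6 replicates were first kept in high glucose (HG) medium at 25 mM for 7 days. The control group then had 1 further day under HG without TEPP-46, a small molecule that activates the glycolytic enzyme pyruvate kinase M2. The case group had that 1 day under HG with TEPP-46 at 10 μM. All replicates came from 1 cell line and all were under HG, so the comparison is of TEPP-46 within HG, and the spread between replicates is that between these libraries.

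Colony-stimulating factors are secreted glycoproteins that keep myeloid cells alive and drive their growth and maturation, and injured tubular epithelium is known as one of their sources in the kidney. IL-6, IL-11, and LIF belong to the IL-6 family, whose receptors share the signal transducing chain gp130 and signal through JAK kinases and STAT3. IL-1α, IL-1β, and IL-18 are made as precursors without a classical signal peptide. Many messages of these families are short-lived because AU-rich elements in the 3′ untranslated region (UTR) recruit decay proteins, and their genes are commonly controlled at the promoter by NF-κB and AP-1.

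Most of the 10 genes held the letters TATTTAT, a heptamer at the core of AU-rich elements, in the 3′ UTR. The densest windows of 5 of them are shown to let it be seen. The heptamer TATTTAT was searched in 1 reference transcript per gene (GENCODE release 44, GRCh38), on the strand of the transcript and with overlapping matches counted. The heptamer is in capitals in each window of 30 bases, written 5′ to 3′ in DNA letters.
*CSF2*, chr5:132076069-132076098, + strand: tatttttaaaaTATTTATTTATTTATTTAT
*IL11*, chr19:55365950-55365979, - strand: tccaaagccagatctTATTTATTTATTTAT
*IL1B*, chr2:112830002-112830031, - strand: gagcaaccgcttcccTATTTATTTATTTAT
*IL6*, chr7:22731919-22731948, + strand: tttttaaagaaaTATTTATattgTATTTAT
*LIF*, chr22:30242566-30242595, - strand: gatttcTATTTATtatgatatccTATTTAT
The window of *CSF2* held 4 overlapping heptamers in a row, those of *IL11* and *IL1B* held 3, and those of *IL6* and *LIF* held 2 that were set apart. Over the whole 3′ UTR, *CSF2* had 7 heptamers in 318 bases, the densest of the 10 genes at 22.01 per 1000 bases. *IL11* also had 7 but in 1625 bases, *LIF* had 5 in 3198 bases, and *IL1B* had 4 in 610 bases. *CSF3*, *IL6*, and *IL1A* had 3 each, *CSF1* had 1, and the 3′ UTRs of *IL18* and *IL32* did not hold these letters. Of 18780 reference 3′ UTRs, 32.1% held at least 1 heptamer and 6.34% held at least 3. Of the 13532 within the length range of the 10 genes, 175 to 3198 bases, these shares were 27.6% and 3.02%. The search for the heptamer was added after expression values were known, and a match describes letters, not a working element.

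The promoter of *CSF2* is shown because this gene had the largest log2 fold change of the 7 that were tested. The 250 bases before its RefSeq start (GRCh38.p14, chr5:132073539-132073788, + strand) are written 5′ to 3′ with motif matches in capitals.
*CSF2* promoter: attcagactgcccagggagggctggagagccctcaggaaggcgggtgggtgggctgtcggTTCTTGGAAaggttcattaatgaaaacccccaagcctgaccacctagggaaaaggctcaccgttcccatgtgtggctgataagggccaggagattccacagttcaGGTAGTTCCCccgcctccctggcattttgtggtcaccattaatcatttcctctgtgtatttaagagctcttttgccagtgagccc
The first run in capitals matched the STAT motif TTCNNNGAA at -190 to -182 from the start, and the second matched the NF-κB motif (GGGA and CC with 4 free bases between them) on the opposite strand at -85 to -76. RefSeq promoters, which reached from 250 bases before to 50 bases after the start, were found for 6 of the 10 genes, and both strands were searched for these motifs, for AP-1 (TGANTCA), for a C/EBP-ATF composite element (TGATGNAA), and for a TATA box (TATAAA). *IL6* held GGGATTTTCC at -73 to -64 with an overlapping NF-κB match on the other strand. *IL32* held GGGAGTTTCC at -99 to -90, also overlapped by a match on the other strand, and a further NF-κB match at -68 to -59. These lay in its window chr16:3065153-3065452, while its other window, chr16:3065534-3065833, held none of the motifs. *IL11* and *IL1A* held AP-1 matches, at -96 to -90 for *IL11*, and *IL1B* held a STAT match at -180 to -172. *IL1A* had the window chr2:112784444-112784743 and an overlapping one, chr2:112784351-112784650, both with AP-1 matches. Only the former held the letters of the TATA box, at -239 to -234. Of all 35116 promoters of this length, 25.6% held the NF-κB motif, 7.71% AP-1, 7.66% STAT, 11.5% the TATA box, and 3.62% the C/EBP-ATF element. The matches describe letters in these windows and were not tested for binding.

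The libraries held at least 18533883, 17825912, and 17284213 reads on genes in control replicates 1 to 3 and at least 16625333, 15963454, and 15282104 reads in case replicates 1 to 3. Levels below are FPKM as deposited, which are the reads of a gene divided by its length and by the reads of its library, so genes can be compared with each other on this scale. Log2 fold changes are on the scale of log2(scaled FPKM + 0.1), case minus control, with the standard error (SE) from limma. *CSF2*, *LIF*, *IL32*, *IL11*, *CSF1*, *IL18*, and *IL6* passed the filter of a mean FPKM of at least 0.5. *CSF3*, *IL1A*, and *IL1B* did not pass and have no value in the fit. *CSF2* and *LIF* passed an adjusted *P*-value of 0.05 and were called upregulated, and the other 5 were not called. Among all 13599 tested genes 1792 were differentially expressed (DE), which is 13.2%, with 998 upregulated (7.34%) and 794 downregulated (5.84%). Since the 10 genes were selected on this comparison, nothing is read from their calls, from how these held under other settings, or from their count against that background.

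**Figure D1:**
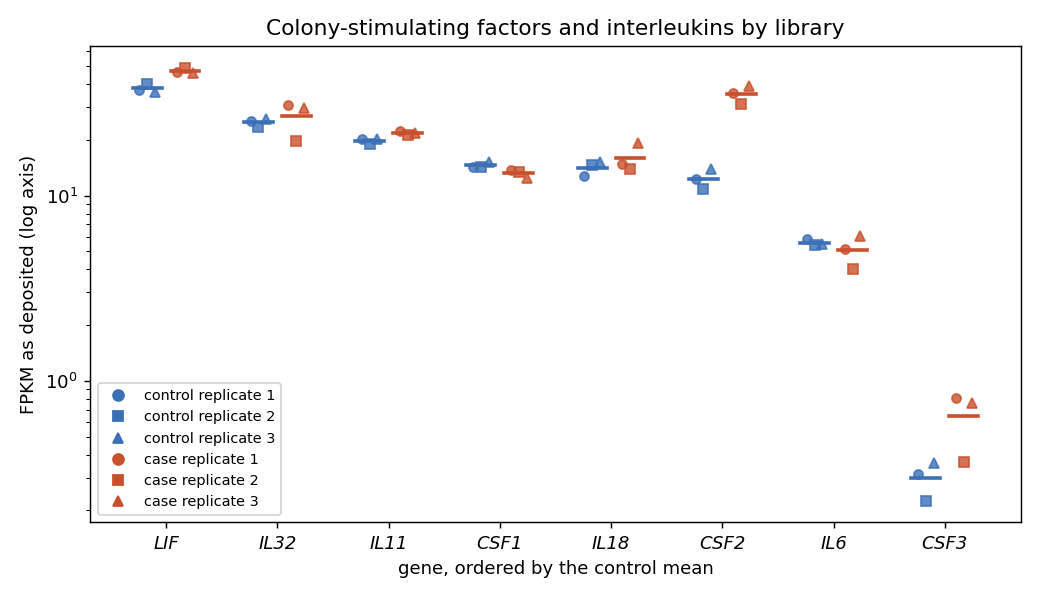
FPKM of the 8 genes with a mean of at least 0.1 in each of the 6 libraries, on a log axis, with control replicates in blue, case replicates in red, and the mean of each group as a bar. *CSF2* moved from 12.3 to 35.3 FPKM while the case means of the other 6 genes above 5 FPKM were 0.909 to 1.24 times their control means, and *IL1A* and *IL1B*, with at most 5 reads in any library, are not drawn.

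*CSF2* encodes GM-CSF, the granulocyte-macrophage colony-stimulating factor, and lies at chromosome 5, 132073789 to 132076170, on the + strand. Its level was 12.2, 10.8, and 13.9 FPKM in control replicates 1 to 3 and 35.6, 31.3, and 39.0 FPKM in case replicates 1 to 3. The groups did not overlap, and the lowest case value was 2.25 times the highest control value. The group means were 12.3 ± 1.53 FPKM (SD, n = 3) and 35.3 ± 3.89 FPKM (SD, n = 3), and the log2 fold change was 1.59 (SE 0.13), a fold of 3.01. These levels came from 179, 153, and 190 reads in the control group and 468, 395, and 472 reads in the case group. Among the 13599 tested genes *CSF2* ranked 85 by log2 fold change from the top. Over the 18 alternative settings its log2 fold change ran from 1.39 with TPM, which brings every library to the same sum of length-scaled values, to 1.70 without case replicate 2.

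*CSF1* encodes M-CSF, the factor on which macrophages depend, at chromosome 1, 109910242 to 109930992, on the + strand. Its level was 14.2, 14.3, and 15.1 FPKM in the control group and 13.8, 13.4, and 12.5 FPKM in the case group. All 3 case values as deposited lay under the control values, but the groups overlapped after scaling, with a log2 fold change of -0.06 (SE 0.08). *CSF1* had 1039 to 1436 reads per library, more than *CSF2* in every library.

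*CSF3* encodes G-CSF, the granulocyte factor, at chromosome 17, 40015361 to 40017813, on the + strand. Its level was 0.314, 0.226, and 0.363 FPKM in the control group and 0.809, 0.365, and 0.762 FPKM in the case group. Case replicate 2 lay only just above the highest control replicate, while the other case replicates were well above it. These values came from 13, 9, and 14 reads and from 30, 13, and 26 reads. The ratio of the mean FPKM values was 2.14, and in the fit without a filter on low values the log2 fold change was 0.92 (SE 0.37) and *CSF3* was not called.

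In the control group *CSF1* was higher than *CSF2* in mean FPKM, with 14.6 ± 0.502 (SD, n = 3) against 12.3 ± 1.53. In the case group the order of mean FPKM was turned, with *CSF2* at 35.3 and *CSF1* at 13.2 ± 0.675 FPKM (SD, n = 3). The values of both genes did not overlap there. The lengths behind these FPKM were 787 bases for *CSF2* and 5418 for *CSF1*, and whether transcript numbers changed order was not tested. *CSF2* made up 8.49% to 10.5% of the summed FPKM of the 10 genes in the control libraries and 20.4% to 22.3% in the case libraries.

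The IL-6 family was led in FPKM by *LIF*, leukemia inhibitory factor, which acts on cells that carry LIFR with gp130. *LIF* lies at chromosome 22, 30240453 to 30246759, on the - strand. Its level was 37.0, 40.1, and 36.4 FPKM in the control group and 46.2, 49.0, and 45.7 FPKM in the case group. The groups did not overlap, and *LIF* had the highest FPKM of the 10 genes in all 6 libraries. The mean rose from 37.8 ± 1.99 to 47.0 ± 1.79 FPKM (SD, n = 3 each), and the log2 fold change was 0.39 (SE 0.07), a fold of 1.31. With 2508 to 3121 reads per library *LIF* was also the most deeply read of the 10 genes. *LIF* was past the threshold under 11 of 18 alternative settings. It was not past it without control replicate 1, 2, or 3 (0.38, 0.43, and 0.36) or without case replicate 3 (0.41). The same held with TPM (0.19), with quantile normalization (0.27), and without the intensity trend of limma (0.39). The log2 fold change was above 0 under all 18.

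*IL11* encodes a gp130 cytokine linked to fibrosis of several organs and lies at chromosome 19, 55364382 to 55370463, on the - strand. Its level was 20.1, 18.9, and 20.1 FPKM in the control group and 22.4, 21.2, and 21.9 FPKM in the case group. The groups were narrow and did not overlap, but the difference was small, with a log2 fold change of 0.22 (SE 0.08), and *IL11* was not called. Without case replicate 2 it was called, at 0.27, while it was 0.15 on FPKM as deposited and 0.025 with TPM and was not called.

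*IL6* encodes the founding member of the family at chromosome 7, 22725884 to 22732002, on the + strand. Its level was 5.84, 5.39, and 5.45 FPKM in the control group and 5.15, 4.01, and 6.07 FPKM in the case group. The groups overlapped, with case replicate 2 the lowest and case replicate 3 the highest of all 6 libraries. The log2 fold change was -0.07 (SE 0.16), and it was 0.11 without case replicate 2 and -0.27 with TPM, so no direction is given for *IL6*. Its level rested on at least 133 to 225 reads per library, which are lower bounds because the gene length behind its FPKM was not settled.

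**Figure D2:**
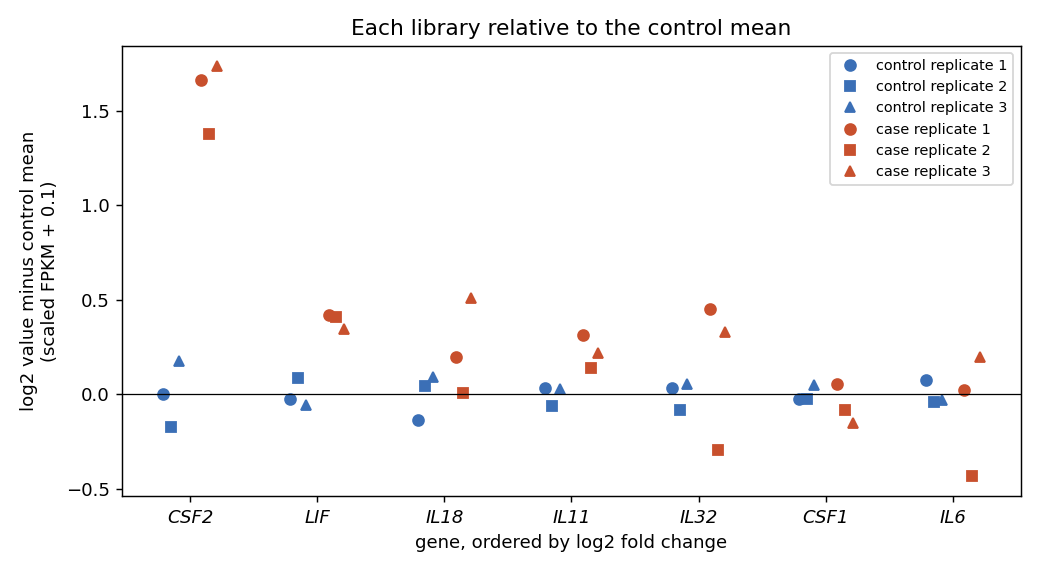
Log2 difference of each library from the control mean for the 7 genes that passed the filter, on scaled FPKM after 0.1 was added, with control replicates in blue and case replicates in red. The case replicates of *CSF2* sit at 1.66, 1.38, and 1.73, those of *LIF* between 0.34 and 0.42, and those of *IL32* at 0.45, -0.30, and 0.33.

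Of the 3 genes of the IL-1 family only *IL18* passed the filter. *IL18* encodes a cytokine that drives interferon-γ production and is known to be made by tubular epithelium, and it lies at chromosome 11, 112143253 to 112164096, on the - strand. Its level was 12.8, 14.6, and 15.1 FPKM in the control group and 14.8, 13.9, and 19.2 FPKM in the case group. The groups overlapped, with case replicate 3 the highest of all 6 libraries and case replicate 2 among the control values. The log2 fold change was 0.24 (SE 0.13), and it was 0.11 without case replicate 3, 0.35 without case replicate 2, and 0.039 with TPM. *IL1A* and *IL1B*, which encode the IL-1 receptor agonists IL-1α and IL-1β, lie next to each other on chromosome 2. *IL1A* had 0, 0, and 1 reads in the control group and 5, 0, and 0 reads in the case group, and *IL1B* had at most 1 read in any library. A count of 0 allows up to 3 reads, so no fold is given for either gene, and a difference was not detectable at this depth.

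*IL32* encodes a cytokine that rodents lack and that has no close relative among the interleukins and lies at chromosome 16, 3065297 to 3082192, on the + strand. Its level was 25.2, 23.4, and 25.8 FPKM in the control group and 30.9, 19.7, and 29.7 FPKM in the case group. Case replicates 1 and 3 lay above all control replicates and case replicate 2 lay below all of them. The log2 fold change was 0.16 (SE 0.18) and *IL32* was not called. It was called without case replicate 2, at 0.39, and with TPM it was -0.039, where the median of all tested genes moved to -0.19.

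Of the 7 tested genes, *CSF2*, *LIF*, and *IL11* had groups that did not overlap after scaling, where 39.9% of all tested genes did the same. Case replicate 2 had the lowest case FPKM for 6 of the 8 genes with a mean of at least 0.1, while *LIF* was highest there. The median SD of log2 values over all tested genes was 0.19 in the case group and 0.09 in the control group, so the case libraries differed more among themselves. For *LIF* and *IL11* the coefficient of variation in the case group was 3.82% and 2.69%, and for *IL32* and *IL6* it was 22.9% and 20.4%.

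In the control group the order of mean FPKM was *LIF* (37.8), *IL32* (24.8), *IL11* (19.7), *CSF1* (14.6), *IL18* (14.2), *CSF2* (12.3), *IL6* (5.56), and *CSF3* (0.301), with *IL1B* and *IL1A* near 0. The values of *CSF1* and *IL18* overlapped, as did those of *IL18* and *CSF2*, and no other neighbours above *IL1B* overlapped. In the case group the order was *LIF* (47.0), *CSF2* (35.3), *IL32* (26.8), *IL11* (21.8), *IL18* (16.0), *CSF1* (13.2), *IL6* (5.08), and *CSF3* (0.645). *CSF2* thus stood sixth in the control group and second in the case group. In the case group *IL32* and *IL11* overlapped, and no other neighbours above *IL1A* did.

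Reads of overlapping genes on opposite strands cannot be told apart unless strand was used in counting, which was not given in the sources used here. *LIF* is overlapped by the antisense RNAs *LIF-AS1* and *LIF-AS2*, whose levels were at most 0.564 and 1.10 FPKM in any library, and *IL6* is overlapped by *STEAP1B*, at 1.53 to 2.26 FPKM, and by *IL6-AS1*, at most 0.409 FPKM. *STEAP1B* had a log2 fold change of 0.12 (SE 0.16) and *LIF-AS2* of 0.90 (SE 0.43), and neither was called. Next to *CSF2*, 10585 bases away, lies *IL3*, another haematopoietic cytokine, which was listed at 0 in 5 libraries and at 0.114 FPKM in case replicate 1. On its other side *P4HA2-AS1* was at most 0.137 FPKM. Next to *LIF* lies *OSM*, the gp130 cytokine oncostatin M, at most 0.0508 FPKM, and on the other side *ENSG00000225676*, a long noncoding RNA. This RNA was at 0.540, 0.187, and 0.193 FPKM in the control group and 1.00, 1.05, and 0.437 FPKM in the case group. It passed the filter on mean FPKM only through the case group, and its log2 fold change of 1.28 (SE 0.46) was not called. The genes beside *CSF2* and *LIF* were thus at most 1.05 FPKM in any library.

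The other genes of these pathways were described from 6 lists made by family membership, which held 128 genes of the table. Of these, 78 were tested, and 13 were DE (16.7%, against 13.2% of all tested genes), 11 upregulated and 2 downregulated. Their median log2 fold change was 0.02, and that of all tested genes was -0.00167. The 13 genes kept their direction under all 18 settings, but not their calls. The calls of *AREG*, *GDF15*, and *LTB* held under 15 settings, that of *CASP4* under 14, those of *CLCF1*, *IL6R*, and *TIAL1* under 13, that of *NFKBIA* under 12, those of *CSF2RA* and *HBEGF* under 11, those of *IL24* and *GRN* under 10, and that of *VEGFA* under 6. *IL24* and *CSF2RA* were among those not called on FPKM as deposited, with TPM, or with no filter on low values. Without control replicate 1, 2, or 3, limma called 0 of the 78, with 21, 18, and 18 at an unadjusted *P*-value under 0.05. The same fits called 105, 69, and 87 of 13610, 13609, and 13591 tested genes, with 3215, 3029, and 3340 at an unadjusted *P*-value under 0.05. Without case replicate 3 limma called 3 of the 78, against 192 of 13593 tested genes. Without case replicate 2 it called 23 of the 78, against 3495 of 13575 tested genes. Of the 23, 11 were upregulated and 12 downregulated, against 1813 and 1682 of all tested genes. The split of the list genes into upregulated and downregulated moved with scaling and was 8 and 4 on FPKM as deposited, 9 and 5 with quantile normalization, and 5 and 12 with TPM. Over all tested genes it was 662 and 1124, 865 and 903, and 383 and 2387 under these settings.

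**Figure D3:**
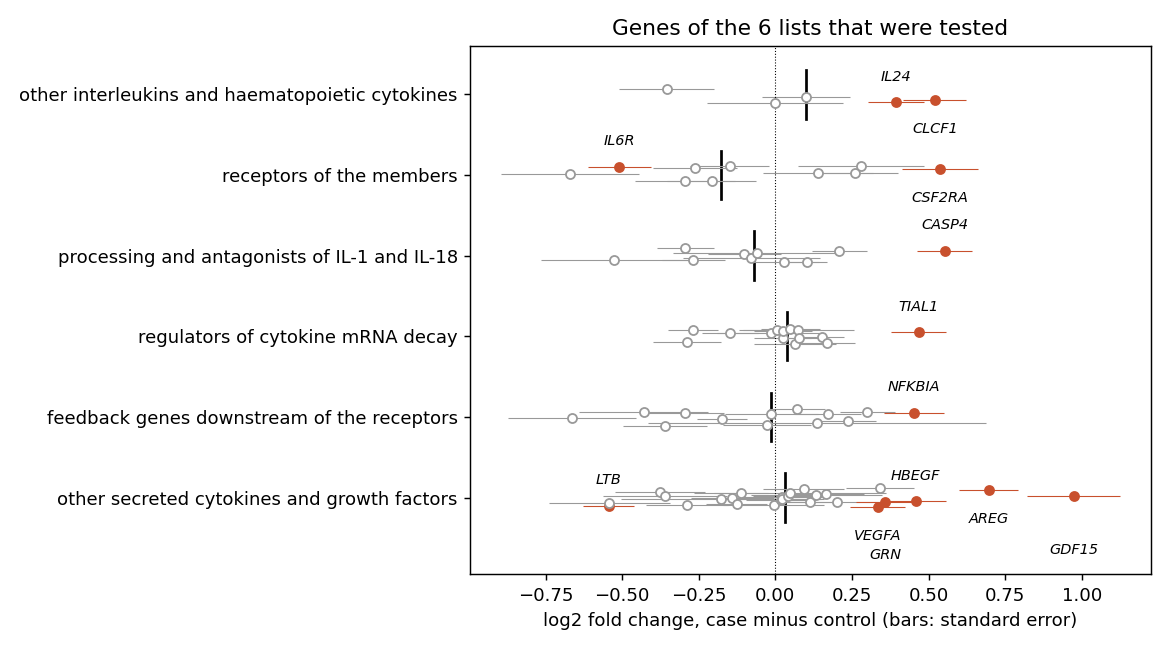
Log2 fold change with its SE for the 78 tested genes of the 6 lists, with DE genes filled and named and the median of each list as a black line. The list medians lie between -0.18 for the receptors and 0.10 for the other interleukins, and the 2 downregulated genes are *IL6R* and *LTB*.

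Of 28 other interleukins and haematopoietic cytokines in the table only 5 were tested, and 2 of these were upregulated by limma (40% called, against 13.2% of all tested genes). *CLCF1*, a cytokine of the IL-6 family that acts on the ciliary neurotrophic factor receptor, was at 10.1, 9.44, and 8.54 FPKM in the control group and 13.1, 11.9, and 13.2 FPKM in the case group, with a log2 fold change of 0.52 (SE 0.10, adjusted *P*-value = 0.0215). *IL24*, a cytokine of the IL-10 family, was at 8.41, 8.06, and 8.66 FPKM and at 9.68, 10.2, and 11.6 FPKM (0.39, SE 0.09, adjusted *P*-value = 0.0326). Neither gene overlapped between the groups. *KITLG*, the stem cell factor, was not called (-0.35, SE 0.15). *IL13*, *IL20*, and *IL36A*, named after their values were seen, were listed at 0 in every library, and 17 further genes of this list were not analysed here.

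Of 14 receptor genes 10 were tested, 1 was upregulated, and 1 was downregulated (20% called, against 13.2% of all tested genes), with a list median of -0.18. *CSF2RA*, the chain that binds GM-CSF, was at 1.65, 1.92, and 1.68 FPKM in the control group and 2.52, 2.57, and 2.28 FPKM in the case group (0.54, SE 0.12, adjusted *P*-value = 0.0312 by limma). The gene lies in the region shared by the X and Y chromosomes, so its reads may be split between copies. *CSF2RB*, the signaling chain that GM-CSF also needs, was not analysed here. *IL6R*, the chain that binds IL-6, was at 3.73, 3.64, and 3.51 FPKM and at 2.25, 2.67, and 2.26 FPKM (-0.51, SE 0.10, adjusted *P*-value = 0.0233 by limma). The groups of *CSF2RA* and of *IL6R* did not overlap. *OSMR*, the oncostatin M receptor and the most abundant receptor of the list, had 53.7, 57.3, and 56.2 FPKM in the control group and 38.4, 57.3, and 38.8 FPKM in the case group and was not called (-0.26, SE 0.14). *IL6ST*, which encodes gp130, was not called either (-0.15, SE 0.13). Of the receptors for colony-stimulating factors, *CSF3R* was listed at 0 in every library and *CSF1R* was at most 0.0379 FPKM. *LIFR*, named after its values were seen, had a log2 fold change of -0.67 (SE 0.22) and was not called, with 3.04, 3.47, and 3.45 FPKM in the control group and 1.28, 2.75, and 2.06 FPKM in the case group.

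Of 16 genes for the processing and antagonists of IL-1 and IL-18, 10 were tested and 1 was upregulated (10% called, against 13.2% of all tested genes). It was *CASP4*, an inflammatory caspase that senses lipopolysaccharide in the cytosol, at 4.6, 4.44, and 4.45 FPKM in the control group and 5.95, 6.13, and 6.83 FPKM in the case group (0.55, SE 0.09, adjusted *P*-value = 0.0145 by limma). *CAPN2*, *CAPN1*, and *GSDMD* were the most abundant, with log2 fold changes of 0.10 (SE 0.07), -0.27 (SE 0.10), and 0.03 (SE 0.11), and were not called. *CASP1*, which cleaves the precursors of IL-1β and IL-18, was at most 0.0176 FPKM in any library, and *IL1RN*, the IL-1 receptor antagonist, was at most 0.154 FPKM. Both were named after their values were seen.

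Of 16 regulators of cytokine mRNA decay 14 were tested and 1 was upregulated (7.14% called, against 13.2% of all tested genes). *TIAL1*, an RNA-binding protein that represses translation of AU-rich messages, was at 11.6, 11.4, and 11.0 FPKM in the control group and 13.5, 14.8, and 16.5 FPKM in the case group (0.47, SE 0.09, adjusted *P*-value = 0.0201 by limma). *KHSRP* and *HNRNPD*, both binders of AU-rich elements, and *ZC3H12A*, the nuclease regnase-1, were the most abundant and were not called, with log2 fold changes of -0.15 (SE 0.09), -0.27 (SE 0.08), and 0.17 (SE 0.09). The list median was 0.04.

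Of 14 feedback genes downstream of the receptors 13 were tested and 1 was upregulated (7.69% called, against 13.2% of all tested genes). *NFKBIA*, which encodes the NF-κB inhibitor IκBα and is itself an NF-κB target, was at 165, 157, and 175 FPKM in the control group and 232, 200, and 212 FPKM in the case group (0.45, SE 0.10, adjusted *P*-value = 0.0259 by limma). Its groups did not overlap. *TNFAIP3*, the ubiquitin-editing inhibitor A20, was at 0.30 (SE 0.09) and *BCL3* at 0.07 (SE 0.09) on the log2 scale, and neither was called. *SOCS3*, the feedback inhibitor of gp130 signaling, named after its values were seen, was not called (-0.03, SE 0.14).

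Of 40 other secreted cytokines and growth factors 26 were tested, 5 were upregulated, and 1 was downregulated (23.1% called, against 13.2% of all tested genes). *AREG*, the epidermal growth factor receptor ligand amphiregulin, was the most abundant of them, at 104, 103, and 99.9 FPKM in the control group and 139, 154, and 180 FPKM in the case group (0.70, SE 0.10, adjusted *P*-value = 0.0101 by limma). *GDF15*, a stress-induced member of the transforming growth factor family, was at 1.23, 1.12, and 1.38 FPKM and at 2.70, 2.36, and 2.18 FPKM (0.97, SE 0.15, adjusted *P*-value = 0.0132 by limma). Its log2 fold change was the largest of the 78 list genes, under the 1.59 of *CSF2*. *HBEGF*, another ligand of the epidermal growth factor receptor, *GRN*, which encodes progranulin, and *VEGFA* were upregulated by 0.46 (SE 0.10), 0.36 (SE 0.09), and 0.33 (SE 0.09), with adjusted *P*-values in limma of 0.0263, 0.0448, and 0.0480. *LTB*, lymphotoxin β, was downregulated from 18.7, 18.7, and 18.5 FPKM to 11.6, 11.5, and 13.1 FPKM (-0.54, SE 0.08, adjusted *P*-value = 0.0132 by limma). *TGFB1* was not called (0.04, SE 0.11).

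**Figure D4:**
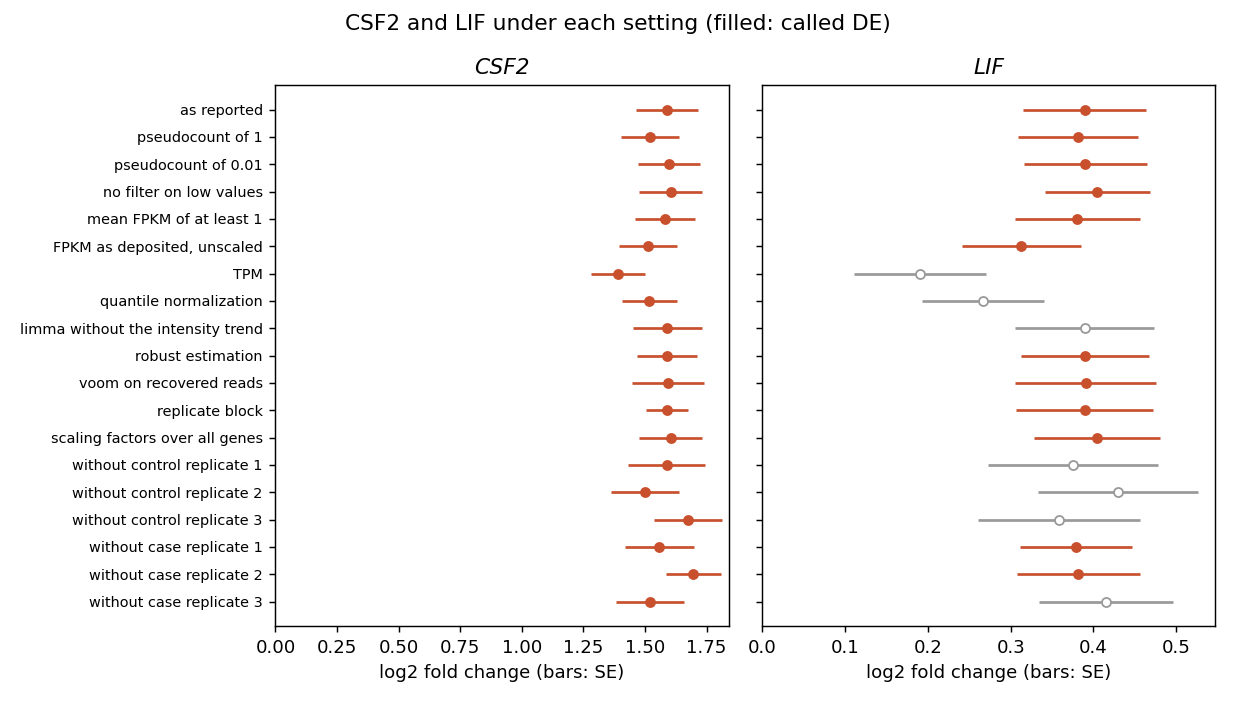
Log2 fold change with its SE of *CSF2* (left) and *LIF* (right) as reported and under 18 alternative settings, with filled points where the gene was called DE. *CSF2* is filled throughout, between 1.39 and 1.70, and *LIF* is filled in 11 of the 18 alternatives, between 0.19 and 0.43.

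The cells carried epithelial keratins but little of the transport machinery of the proximal tubule. *KRT19*, *KRT8*, and *KRT18* were at 158 to 384 FPKM over all libraries, with *KRT19* the most abundant by mean, while *LRP2*, *CUBN*, *AQP1*, *SLC34A1*, and *SLC5A2*, which encode megalin, cubilin, a water channel, and the transporters of phosphate and glucose, were at most 0.123 FPKM in any library. Of the 15 epithelial and tubular markers analysed, 6 were tested, 3 with a log2 fold change above 0 and 3 below, and 1 was called (16.7%, against 13.2% of all tested genes). This was *CDH1*, the epithelial cadherin, which was downregulated (-0.64, SE 0.11, adjusted *P*-value = 0.0156 by limma), while *KRT8* (-0.27, SE 0.11), *KRT18* (0.02, SE 0.12), *KRT19* (0.02, SE 0.12), and *EPCAM* (0.04, SE 0.09) were not called. The 8 leukocyte markers analysed summed to 0.897 to 1.23 FPKM in the control group and 0.356 to 0.736 FPKM in the case group. *CD14* was their most abundant gene, with 7 to 31 reads per library, and was called downregulated (-1.24, SE 0.31, adjusted *P*-value = 0.0384 by limma). It passed the filter on mean FPKM only through the control group, with means of 0.806 FPKM there and 0.264 FPKM in the case group. Nothing is therefore read from its call. *PTPRC*, *CD3E*, *MS4A1*, and *TYROBP* were not analysed here. Without *CD14*, the other 7 summed to 0.339, 0.275, and 0.313 FPKM in the control group and 0.450, 0.124, and 0.451 FPKM in the case group. Their part in the values of the 10 genes was not tested. The 4 endothelial markers summed to at most 0.0886 FPKM, with *PECAM1* the most abundant, and the 3 fibroblast markers analysed to at most 0.400 FPKM, with *COL1A1* the most abundant. In bulk RNA, fewer cells that express a gene and less RNA per cell cannot be told apart.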

How the data were processed

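The authors aligned reads of 6 HK-2 libraries with HISAT2 2.1.0 to GRCh38.p13, counted them on genes with HTSeq 0.6.0, and deposited FPKM values of 29483 genes. The annotation release, strandedness, and RNA selection were not given in the sources used here. Symbols and positions came from GENCODE release 44 for 29063 genes. Whole reads were recovered from the steps of the deposited FPKM values (within 0.02 of whole numbers) for 100% of the 27922 genes above 0. They are the smallest whole numbers that fit where the exon length did not settle them, as for *IL6*, so they are lower bounds, and they cover counting error only since molecules were not tagged. The length implied for *IL6* was 2069 bases, against 4321 in the annotation.

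Each library was scaled by a median-of-ratios factor (0.944 to 1.04) computed over the tested genes, 0.1 was added, and log2 values were fitted in R 4.3.3 with limma 3.58.1 with an intensity trend and no covariates. The test covered genes whose mean FPKM reached 0.5, and *P*-values were adjusted over 13599 genes by the Benjamini-Hochberg method, with a threshold of 0.05. A first fit with factors over all genes gave 1797 DE genes. Factors over the tested genes were then taken, as in earlier work on these data, and the first fit was kept as an alternative chosen after seeing the data. The study calls its replicates independent and describes their treatment as separate, and *P*-values measure the spread between these libraries.

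The 10 genes, the 6 lists, and the tests were chosen with earlier results of these data known. Named genes were the 10, all list genes called DE (up to 8 per list, by absolute log2 fold change), the 3 most abundant of each list, overlapping genes, neighbours of called members, and, of the markers, the most abundant and those at 0, of which 1 is not reported here. All other genes were named after their values were seen. These are *LIFR*, *CASP1*, *IL1RN*, *SOCS3*, *CSF1R*, *CSF3R*, *IL13*, *IL20*, *IL36A*, *EPCAM*, *CDH1*, the keratins other than *KRT19*, the tubular transporters, and the genes given as not analysed here. Alternatives were pseudocounts of 1 and 0.01, no filter, a minimum mean FPKM of 1, unscaled FPKM, TPM, quantile normalization, no intensity trend, robust estimation, voom on the recovered reads, a replicate block, factors over all genes, and each replicate left out.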

Additional observations from a re-analysis of the deposited data

How the results depend on the processing

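The log2 fold change of *CSF2* kept its direction and its side of the threshold under all 18 alternatives, and that of *LIF* kept its direction under 18 and its side under 11, which is no support since both were selected on this comparison. *CSF1*, *IL11*, and *IL18* kept their direction under 18, but not their size, and with TPM they were at -0.26, 0.025, and 0.039. *IL6* ranged from -0.20 to 0.11 with a replicate left out, and reversed at 0.11 without case replicate 2, with its lowest value, -0.27, with TPM, and *IL32* reversed to -0.039 with TPM, which moved the median of all tested genes to -0.19. Relative to that median *CSF1* was at -0.06, *IL6* at -0.07, *IL11* at 0.22, *IL18* at 0.23, *IL32* at 0.16, and *LIF* at 0.38. Against 1792 DE genes, there were 524 with no filter on low values, 2770 with TPM, 852 without the intensity trend, and 2807 with voom, and leaving out 1 replicate gave 69 to 3495. By library, these were 105, 69, and 87 without control replicates 1, 2, and 3, and 2296, 3495, and 192 without case replicates 1, 2, and 3. The split into upregulated and downregulated genes, 998 and 794 as reported, was 383 and 2387 with TPM, 662 and 1124 on FPKM as deposited, and 347 and 177 with no filter. Of the 10 cytokine genes 1 was called with TPM, with quantile normalization, and without the intensity trend, and 1 to 4 with a replicate left out, the most without case replicate 2. Of the 78 list genes 5 were called with no filter and 8 without the trend, against 13, and 0 to 23 with a replicate left out. The calls thus depended on the control replicates and on case replicates 2 and 3, and the cause was not tested.

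With the replicate number as a block (replicate block) there were 1610 DE genes, 848 upregulated and 762 downregulated, 2 of the 10 cytokine genes were called, and 13 list genes were called, 10 upregulated and 3 downregulated, with *VEGFA* no longer among them. Deviations of samples with the same number correlated at 0.0634, 0.0999, and -0.0535, so the numbers were not taken to pair the samples, and not every sample correlated best with its own number. Factors over all genes, added after seeing the data, gave 1797 DE genes. Depth limited *CSF3*, *IL1A*, and *IL1B*, with at most 30 reads in any library.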
